A study of Mus musculus with 12 samples.

Results

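The CCN family is a group of 6 secreted matricellular proteins, and the transcripts of its 6 genes, *Ccn1* to *Ccn6*, were followed in cultured mouse female germline stem cells (FGSCs) in which *Stella* was knocked out or overexpressed. The members were the rows of the count table whose RefSeq accession maps to these 6 symbols, out of 24813 genes with a symbol. *Ccn3* was chosen by its measured changes in these libraries, so its values are given as a description without a test. The other 5 genes came in as relatives of *Ccn3*. In every comparison 4 of the 6 passed the filter on low counts, *Ccn1*, *Ccn2*, *Ccn3* and *Ccn5*. The table lists 7 CCN transcripts among 41388, since *Ccn4* has a coding and a non-coding entry, and the non-coding one was at 0 counts in all 12 libraries.

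The libraries were 12, in 4 groups of 3, from FGSCs of strain C57BL/6 grown for >20 passages on a layer of STO cells, which are mouse embryonic fibroblasts stopped from dividing. KO cells carry a *Stella* (*Dppa3*) deletion made by CRISPR/Cas9 with lentiviral guide vectors, and per the study they are 1 clone picked at random, so a knockout effect and a clone effect cannot be told apart. KO-con are the cells labelled as the control of the knockout. Over cells carry *Stella* in a lentiviral vector, and Over-con cells the empty vector. Nothing in the labels says that the 3 libraries of a group came from separate cultures, so p-values measure only the spread between these libraries.

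CCN proteins are built from a shared set of modules. The first resembles insulin-like growth factor binding proteins, and the others resemble von Willebrand factor type C repeats, thrombospondin type 1 repeats and a cystine knot that CCN5 lacks. They are laid down around cells, where they bind integrins, heparan sulfate proteoglycans such as syndecans, and low density lipoprotein receptor-related proteins, and they modulate growth factor signals in place of forming structure. CCN1 and CCN2 are standard targets of YAP and TAZ, the effectors of the Hippo pathway, and of TGF-beta. CCN3 slows the growth of many cells and binds NOTCH1, and CCN4 and CCN5 were first described as Wnt-induced. In the ovary, CCN2 is best known from the granulosa cells of growing follicles.

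Library depth ranged from 5611846 to 12866545 counts (median 10221419), so that 3 counts, the limit that a count of 0 allows, stand for 0.233 to 0.535 CPM (counts scaled to a library size of 1000000). Counting intervals and limits of this kind cover counting error only. *Stella* itself was at 0 counts in the 9 KO-con, KO and Over-con libraries, so its level cannot check the knockout. In Over it was at 32.1, 28.4 and 30.5 CPM. Of 132 genes on 8 lists of CCN-related genes, 62 did not pass the filter on low counts, and 45 of these 62 have 2 or more transcript entries in the table, so absence from the tests says little about such genes.

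*Ccn3* (NM_010930, formerly *Nov*) lies on the plus strand of chromosome 15, at chr15:54577257-54585594 of mm9, with 5 exons. It was at 243, 230 and 232 CPM in KO-con and at 14.7, 15 and 17.0 CPM in KO. In Over-con it was at 769, 568 and 666 CPM, and in Over at 335, 298 and 315 CPM. Each group stood apart from the next, in the order KO, KO-con, Over, Over-con, with no library of one group inside the range of another. The counts behind these levels were 128 to 187 in KO and at least 1916 elsewhere.

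The group means of *Ccn3* were 235.0 ± 6.91 CPM in KO-con, 15.6 ± 1.22 in KO, 668.0 ± 100 in Over-con and 316.0 ± 18.4 in Over (SD, n = 3 each). *Ccn3* was thus 15 times lower in KO than in KO-con, a log2 fold change of -3.90 with a standard error of 0.09. In Over it was 2.10 times lower than in Over-con, with a log2 fold change of -1.07 and a standard error of 0.09. Both engineered lines therefore lay below their own controls. Ranked by log2 fold change, *Ccn3* stood 3rd from the lowest of 9457 transcripts in KO and 16th from the lowest of 9401 in Over. As *Ccn3* was chosen by its changes in these libraries, the ranks only describe it and carry no weight as evidence. In KO, 1.7% of tested transcripts were DEGs (differentially expressed genes, with an adjusted p under 0.05 and more than 1 log2 unit of change either way), against 0.17% in Over.

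The controls of *Ccn3* differed from each other as well. KO-con was 2.83 times below Over-con (log2 fold change -1.5, standard error 0.09), beside 2.10 times between Over and Over-con. With the control groups exchanged, *Ccn3* was -5.42 in KO against Over-con on the log2 scale, whereas in Over against KO-con it turned to 0.43. The direction in Over therefore rests on which control is used, and that in KO does not.

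**Figure D1:**
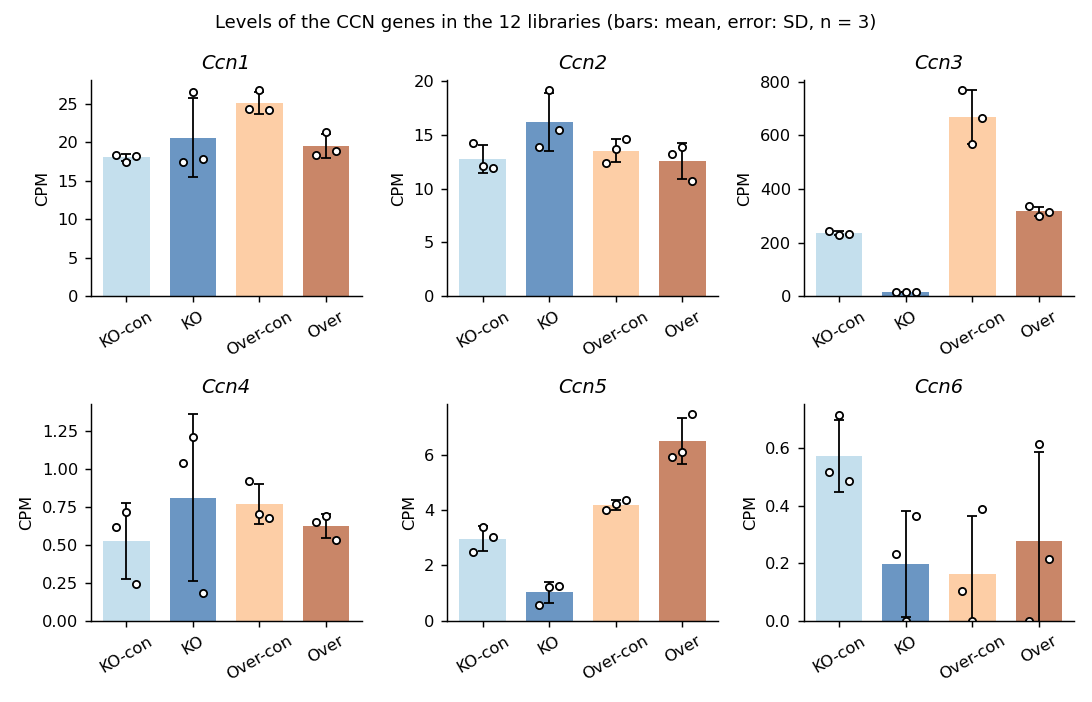
Levels of the 6 CCN genes in CPM (vertical axes, each from 0) in KO-con, KO, Over-con and Over. Points are libraries, bars are means and error bars are SD (n = 3). *Ccn3* separates all 4 groups from 15.6 CPM in KO to 668.0 CPM in Over-con, *Ccn5* separates them in another order, and the remaining members overlap between neighbouring groups.

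*Ccn5* (NM_016873, formerly *Wisp2*), which encodes the member without the C-terminal cystine knot, lies at chr2:163646597-163658882 of mm9 on the plus strand, with 5 exons. It was lower in KO than in KO-con, as *Ccn3* was. *Ccn5* was at 2.48, 3.40 and 3.03 CPM in KO-con and at 0.576, 1.21 and 1.27 CPM in KO, from 24, 38 and 25 against 5, 14 and 14 counts. In Over-con it was at 4.0, 4.22 and 4.37 CPM and in Over at 5.92, 6.13 and 7.48 CPM. The 4 groups again did not overlap, but the order was KO, KO-con, Over-con, Over, with the overexpressing cells highest.

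In KO, the log2 level of *Ccn5* fell by 1.49 (standard error 0.34, edgeR quasi-likelihood adjusted p = 0.00902), from 2.97 ± 0.462 to 1.02 ± 0.386 CPM (SD, n = 3). That was 1 call among the 3 members tested besides *Ccn3* (*Ccn1*, *Ccn2* and *Ccn5*), where 11.8% of all 9457 transcripts were called. In Over, *Ccn5* was 1.55 times higher than in Over-con, at 6.51 ± 0.849 against 4.20 ± 0.186 CPM, and this difference did not pass the test (log2 fold change 0.63, 95% interval 0.25 to 1.02, edgeR adjusted p = 0.146). In Over, 1.65% of 9401 transcripts were called, and edgeR called 0 of the 3 members, as did DESeq2 and limma-voom, with 2 of them, *Ccn1* and *Ccn5*, at an unadjusted p under 0.05. The effects of knockout and overexpression on *Ccn5* differed by -2.12 on the log2 scale (standard error 0.36, edgeR interaction, adjusted p = 0.000647), where 8.64% of 9903 transcripts differed.

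The low counts limit the precision for *Ccn5*. Without KO-con replicate 2, its highest control library, the log2 fold change in KO was -1.37 and the call was lost (edgeR adjusted p = 0.0538). Against Over-con in place of KO-con it was -1.99 (edgeR adjusted p = 0.00103), and Over against KO-con gave 1.12 (edgeR adjusted p = 0.000294). *Ccn5* therefore kept its directions with either control, unlike *Ccn3* in Over.

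**Figure D2:**
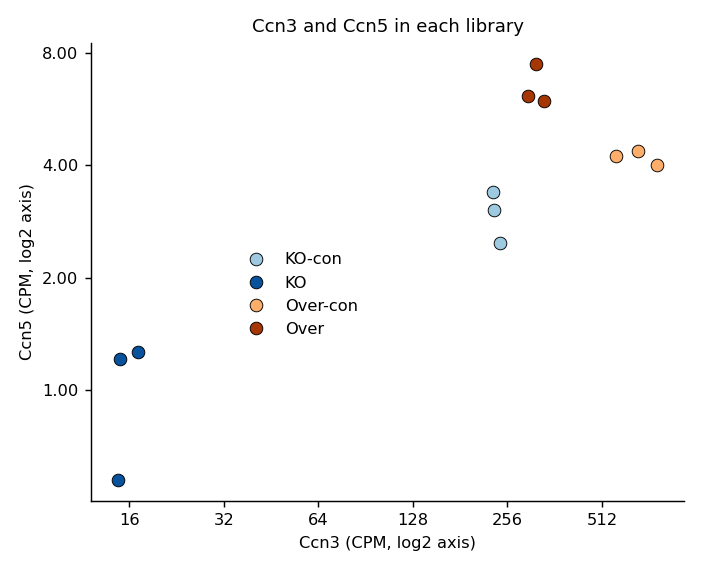
*Ccn3* (horizontal) and *Ccn5* (vertical) in CPM, both on log2 axes, with 1 point per library, coloured by group. The KO libraries sit at the lower left for both genes (14.7 to 17.0 CPM for *Ccn3*, 0.576 to 1.27 CPM for *Ccn5*), while Over-con is highest for *Ccn3* and Over is highest for *Ccn5*.

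*Ccn1* (NM_010516, formerly *Cyr61*) is an immediate early gene whose product supports cell adhesion and migration. It lies on the minus strand at chr3:145309935-145312949 of mm9, with 5 exons. It was the member with a promoter entry that holds a TEAD motif, the letters bound by the DNA-binding partners of YAP (GGAATG, or CATTCC on the other strand, searched on both strands in the 250 bases before the start). The stretch is shown because *Ccn1* is a textbook YAP target. It is RefSeq sequence at chr3:145649986-145650235 of GRCm38.p6, minus strand, written 5′ to 3′ with the motif in capitals, 103 bases before the start.
Ccn1: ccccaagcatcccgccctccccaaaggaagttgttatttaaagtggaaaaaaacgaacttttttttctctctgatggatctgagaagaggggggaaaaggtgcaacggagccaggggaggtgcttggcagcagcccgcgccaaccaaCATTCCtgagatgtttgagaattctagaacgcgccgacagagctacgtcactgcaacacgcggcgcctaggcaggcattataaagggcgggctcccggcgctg
The same letters are in 12.6% of 32851 mouse promoters of this length (4153), and 2 of the 6 members, *Ccn1* and *Ccn6*, were found in the promoter table. The *Ccn6* entry holds no match. A match is a description of the letters and does not show a bound site.

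*Ccn1* was at 18.4, 17.5 and 18.2 CPM in KO-con and at 17.5, 26.5 and 17.8 CPM in KO. The second KO library was the high one, and the remaining 2 lay at the lower end of KO-con. The log2 fold change was 0.21 (95% interval -0.09 to 0.51, edgeR adjusted p = 0.438). In Over-con *Ccn1* was at 24.4, 26.8 and 24.2 CPM and in Over at 18.3, 21.3 and 18.9 CPM. The Over libraries all lay below the Over-con libraries, with a log2 fold change of -0.34 that did not pass the test (95% interval -0.56 to -0.13, edgeR adjusted p = 0.148). With the control groups exchanged both values of *Ccn1* turned, to -0.27 in KO (edgeR adjusted p = 0.408) and 0.12 in Over (edgeR adjusted p = 0.466), and neither passed.

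*Ccn1* did differ between the controls. It was at 18.0 ± 0.451 CPM in KO-con and 25.1 ± 1.43 CPM in Over-con (SD, n = 3), and the log2 difference of KO-con from Over-con was -0.46 (standard error 0.12, edgeR adjusted p = 0.00846). It was the 1 member called of the 3 besides *Ccn3*, where 16.3% of 9321 transcripts were called. The interaction of knockout and overexpression for *Ccn1*, as above for *Ccn5*, was 0.55 (95% interval 0.17 to 0.93, edgeR adjusted p = 0.0848). It passed the threshold without KO replicate 1 (0.64, edgeR adjusted p = 0.0382) or KO replicate 3 (0.66, edgeR adjusted p = 0.0395).

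*Ccn2* (NM_010217, formerly *Ctgf*), the connective tissue growth factor gene and the most used YAP reporter, lies at chr10:24315248-24318489 of mm9 on the plus strand, with 5 exons. It was at 14.3, 12.1 and 11.9 CPM in KO-con and 13.9, 19.2 and 15.5 CPM in KO. In Over-con it was at 12.4, 13.7 and 14.6 CPM and in Over at 13.2, 13.9 and 10.7 CPM. Libraries of each group overlapped those of its control, and no comparison passed the test. The log2 fold changes were 0.36 in KO (95% interval 0.07 to 0.65, edgeR adjusted p = 0.138) and -0.09 in Over (95% interval -0.36 to 0.18, edgeR adjusted p = 0.841). Between the controls the value was -0.08 (95% interval -0.36 to 0.20, edgeR adjusted p = 0.767), and the 2 effects differed by 0.45 (95% interval 0.05 to 0.85, edgeR adjusted p = 0.20). Without KO replicate 1 the value in KO was 0.45 and passed (edgeR adjusted p = 0.0462). *Ccn2* overlaps a non-coding gene on the opposite strand in the mm9 annotation, and how the counting used strand is not given in the sources used here.

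*Ccn4* (NM_018865, formerly *Wisp1*, chr15:66722882-66754763, plus strand) and *Ccn6* (NM_001127376, formerly *Wisp3*, chr10:38870777-38883600, minus strand) were close to the limit of detection and were not tested in any comparison. *Ccn4*, known from the stroma around tumours and from bone, had 2 to 14 counts a library, at 0.182 to 1.21 CPM. All 4 groups overlapped. *Ccn6*, known from cartilage and joint disease, had 0 to 8 counts a library. Its KO-con libraries, at 0.517, 0.716 and 0.485 CPM, lay above those of KO (0.230, 0 and 0.363 CPM) and those of Over-con (0.102, 0 and 0.388 CPM), and Over was at 0, 0.613 and 0.214 CPM. At 0 to 8 counts a library *Ccn6* was below the filter, so these differences were not tested. *Ccn6* overlaps *Tube1* on the opposite strand.

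**Figure D3:**
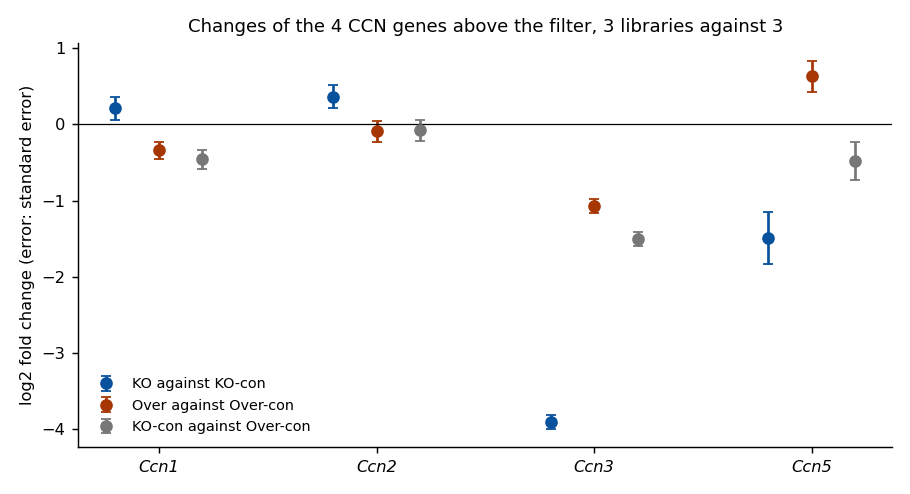
Fitted log2 fold changes (vertical axis, points) with standard errors (bars) of the 4 CCN genes above the filter, for the knockout (blue), the overexpression (brown) and the controls, KO-con against Over-con (grey). *Ccn3* is below 0 in all 3 (-3.90, -1.07 and -1.5), *Ccn5* is at -1.49 in KO and 0.63 in Over, and *Ccn1* and *Ccn2* lie between -0.46 and 0.36.

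Libraries of the group and its control did not overlap for 1 of the 3 members *Ccn1*, *Ccn2* and *Ccn5* in KO, for 2 in Over and for 2 between the controls. Over all tested transcripts the share without overlap was 30.5% in KO, 19.3% in Over and 32.1% between the controls. Permuting the 6 labels of one comparison exactly gives no two-sided p below 0.10, so the calls here come from the fit across all transcripts.

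Divided by transcript length (the longest coding transcript of the mm9 annotation), *Ccn3* was the main CCN transcript in 3 of the 4 groups. Its share of the summed CPM per kb of the 6 genes was 83.3 ± 0.178% in KO-con, 91.7 ± 1.46% in Over-con and 85.3 ± 1.52% in Over (SD, n = 3). In KO the share was 23.7 ± 3.99%, and *Ccn1* led with 43.4 ± 4.30%, followed by *Ccn2* with 29.0 ± 0.353%. The summed level of the family was 98.3 ± 2.84 CPM per kb in KO-con and 23.2 ± 3.6 in KO, and 253.0 ± 34.1 in Over-con and 129.0 ± 5.31 in Over. In KO, *Ccn1* was at 10.2 ± 2.53 CPM per kb, *Ccn2* at 6.74 ± 1.12 and *Ccn3* at 5.43 ± 0.425. *Ccn5* stayed below 4 CPM per kb in all 4 groups (0.594 to 3.79 as group means).

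Transcripts were ranked by how closely they followed *Ccn3* over the 12 libraries, as Pearson's r of log2 CPM among 9903 transcripts. The libraries form 4 separate groups, so r mainly follows the 4 group levels and is given as a description. The 5 highest were *Slc17a9*, which encodes the vesicular nucleotide transporter (r = 0.995), *Xlr3a* of the X-linked lymphocyte-regulated family (0.991), *Cd48*, a surface receptor of blood cells (0.987), *Noct*, the circadian gene nocturnin (0.98), and *H2-Q4*, a class I histocompatibility gene (0.978). *Xlr3a* and *H2-Q4* have near-identical copies in the genome, so their counts are uncertain. The size of the swing differed among them. *Slc17a9* went from 25.8 ± 3.49 CPM in KO-con to 2.29 ± 0.357 in KO and from 52.7 ± 7.24 in Over-con to 30.2 ± 2.50 in Over, whereas *Noct* spanned only 37.8 ± 1.61 CPM in KO to 67.8 ± 5.05 in Over-con.

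At the other end were *Pyroxd2*, an oxidoreductase gene (r = -0.987), *Taf7l*, which encodes a germ cell subunit of the general transcription factor TFIID (-0.964), *Akr1b7*, an aldo-keto reductase gene (-0.957), the cell cycle gene *Rb1* (-0.95) and *Gm14137* (-0.95). Each of the 5 was highest in KO. *Pyroxd2*, the most opposed, had 15.1 ± 1.32 CPM in KO, against 7.19 ± 0.236 CPM in KO-con, and was at 5.11 ± 0.468 in Over-con against 6.73 ± 0.0948 in Over. *Rb1* had 151 ± 17.6 CPM in KO against 103 ± 3.38 CPM in KO-con.

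**Figure D4:**
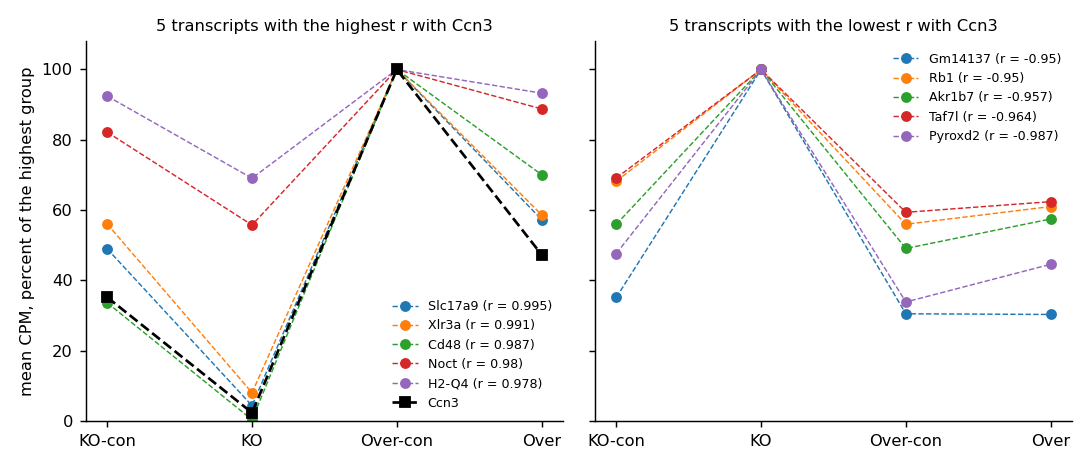
Mean CPM in each group as a percent of the group where the transcript is highest (vertical axis), for the 5 transcripts with the highest and the 5 with the lowest Pearson r with *Ccn3* over 12 libraries. Dashed lines only join the groups of one transcript, and black squares are *Ccn3*. The 5 on the left are lowest in KO and highest in Over-con, like *Ccn3*, and the 5 on the right are highest in KO.

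The surface proteins that CCN proteins bind were next examined, from a list of 19 receptor genes, 13 of which were tested. In KO, 1 rose and 4 fell, with a median log2 fold change of -0.09 against 0.007 over all transcripts, of which 11.8% were called. In Over, 1 rose and 1 fell, with a median of -0.15 against -0.001, where 1.65% of all transcripts were called. *Lrp1*, the lipoprotein receptor that takes up CCN2, and *Itgb1*, the integrin beta 1 chain, were the most abundant and were not called in either comparison (KO -0.14 and 0.09, Over -0.22 and -0.05 on the log2 scale).

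*Itgb3*, the integrin beta 3 chain and a receptor chain for several CCN proteins, fell in both comparisons. It was at 135 ± 9.76 CPM in KO-con and 84.2 ± 16.4 in KO (log2 fold change -0.68, edgeR adjusted p = 0.000757), and at 288 ± 10.9 in Over-con and 210 ± 15.2 in Over (-0.44, edgeR adjusted p = 0.00208). The controls differed too, by -1.08 (edgeR adjusted p = 2.65e-09), so the group means came in the same order as those of *Ccn3*. That order was not particular to *Itgb3*, since the group means of the receptors *Sdc4*, *Itgav*, *Lrp1* and *Sdc1* had it as well. *Itgb3* was singled out after its values were seen. As with *Ccn3*, Over lay above KO-con (0.64, edgeR adjusted p = 1.76e-08). *Itga2b*, a partner chain of beta 3, rose by 0.48 in KO (edgeR adjusted p = 0.000734), from 236 ± 21.4 to 328 ± 17.3 CPM, and *Itga4* rose by 0.45 in Over (edgeR adjusted p = 0.00142), from 165 ± 9.16 to 224 ± 7.96 CPM.

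The other receptors called in KO were the heparan sulfate proteoglycan *Sdc4* (-0.53, edgeR adjusted p = 0.00215), the leukocyte integrin chain *Itgb2* (-0.62, edgeR adjusted p = 0.0181) and the Wnt co-receptor *Lrp6* (-0.21, edgeR adjusted p = 0.0462). *Itgb2* lost its call without KO-con replicate 1, KO-con replicate 2 or KO replicate 2 (edgeR adjusted p = 0.0818, 0.0615 and 0.0809). *Lrp6* lost it without any library but KO replicate 1 (highest edgeR adjusted p = 0.178), and against Over-con its value was 0.01. Without Over-con replicate 3, *Lrp1* (-0.21, edgeR adjusted p = 0.0417), *Itga2b* (0.27, edgeR adjusted p = 0.00251) and *Sdc4* (-0.29, edgeR adjusted p = 0.0139) also passed in Over.

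Of the Hippo pathway, 10 of 17 listed components were tested. The YAP and TAZ genes *Yap1* and *Wwtr1*, their DNA-binding partners *Tead1* to *Tead4*, and *Stk3* were not tested. Each has 2 or more transcript entries, and they were at 0 to 38 counts over the 12 libraries. In KO, 1 rose and 0 fell, and in Over edgeR called 0, with 1 at an unadjusted p under 0.05, while DESeq2 called 1 and limma-voom 0. For comparison with this list and those below, 11.8% of all transcripts were called in KO and 1.65% in Over. *Amot*, an angiomotin that holds YAP out of the nucleus, rose by 0.45 in KO (edgeR adjusted p = 0.0447), from 22.2 ± 3.05 to 29.9 ± 4.91 CPM. The call was lost without KO-con replicate 1, 2 or 3 or KO replicate 2 (edgeR adjusted p = 0.113, 0.211, 0.0528 and 0.226). Its relative *Amotl1* and the kinase gene *Lats1*, the most abundant of the list, were at 0.21 and -0.03 in KO and -0.24 and 0.08 in Over, and were not called. *Amotl1* was the gene that DESeq2 called in Over (DESeq2 adjusted p = 0.0182), and in KO it passed without KO replicate 1 (edgeR adjusted p = 0.0373) or KO replicate 3 (edgeR adjusted p = 0.0395), and in Over without Over-con replicate 3 (edgeR adjusted p = 0.0113).

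Of 20 other YAP and TAZ targets, 13 were tested, with 1 higher in KO and 1 lower in Over. Both calls were *Ankrd1*, a nuclear cofactor gene widely used as a YAP reporter beside *Ccn1* and *Ccn2*. It rose from 209 ± 7.45 to 256 ± 8.41 CPM in KO (0.30, edgeR adjusted p = 0.00764) and fell from 167 ± 22.5 to 121 ± 4.38 CPM in Over (-0.46, edgeR adjusted p = 0.0125). The call in Over was lost without Over-con replicate 1 or Over replicate 1, 2 or 3 (edgeR adjusted p = 0.0784, 0.064, 0.0686 and 0.103). The most abundant target, *Amotl2*, was at 0.01 in KO and -0.07 in Over. The list medians were 0.01 in KO and -0.11 in Over, and the other 12 tested targets were not called in either.

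TGF-beta signaling had 12 of 19 listed genes tested in KO, with 0 higher and 1 lower. The ligand gene *Tgfb1* fell by 0.45 (edgeR adjusted p = 0.00101), from 288 ± 22.5 to 209 ± 14.3 CPM. In Over edgeR called 0 of 12, as did DESeq2 and limma-voom, with 5 at an unadjusted p under 0.05, and *Tgfb1* was at 0.14. Without Over-con replicate 3, *Tgfb1* was at 0.33 in Over and passed (edgeR adjusted p = 0.00196). The abundant co-receptor gene *Tgfbr3* was at -0.23 in KO and -0.16 in Over, and passed in Over without Over-con replicate 3 (edgeR adjusted p = 0.0417).

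Of 19 Wnt pathway genes and targets, 6 were tested. *Lrp6* was the 1 call in KO, and in Over edgeR called 0, as did DESeq2 and limma-voom, with 1 at an unadjusted p under 0.05. *Ccnd1*, the cyclin D1 gene, was at 0.21 in KO and -0.15 in Over and was not called, although it passed in KO without KO replicate 1 (edgeR adjusted p = 0.0313) or KO replicate 3 (edgeR adjusted p = 0.0442).

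Notch genes, of interest because CCN3 binds NOTCH1, had 8 of 14 tested, with 0 higher and 2 lower in KO and 0 higher and 1 lower in Over. *Notch2*, the most abundant, fell from 750 ± 18.7 to 546 ± 46.1 CPM in KO (-0.45, edgeR adjusted p = 0.00096) and was at -0.08 in Over. The target gene *Hes1* fell by 0.94 in KO (edgeR adjusted p = 0.0174), from 5.01 ± 0.702 to 2.56 ± 0.463 CPM, a call lost without KO-con replicate 3 (edgeR adjusted p = 0.0822) or KO replicate 2 (edgeR adjusted p = 0.0607). *Hey2*, another target, fell in Over from 33.5 ± 0.508 to 21.1 ± 1.13 CPM (-0.66, edgeR adjusted p = 0.00142), while in KO-con it was at 5.95 ± 1.48 CPM. *Notch1* and *Notch3* were not called, at 0.25 and 0.17 in KO and -0.06 and -0.09 in Over. *Notch1* passed in KO without KO replicate 1 (0.33, edgeR adjusted p = 0.00674).

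Among matricellular genes outside the family, 7 of 20 were tested in KO and 8 in Over, with 1 higher in KO and 1 lower in Over. Both were *Tnc*, which encodes tenascin C, an adhesion-modulating protein of remodelling tissue. It rose from 432 ± 53.8 to 891 ± 62.1 CPM in KO (1.05, edgeR adjusted p = 1.34e-06) and fell from 454 ± 44.4 to 321 ± 10.2 CPM in Over (-0.49, edgeR adjusted p = 0.00125). The 2 effects differed by 1.54 (edgeR adjusted p = 6.35e-08), and the controls by -0.06 (edgeR adjusted p = 0.693). *Thbs2*, the thrombospondin 2 gene, was at -0.22 in KO and -0.07 in Over and was not called, but passed in KO without KO replicate 2 (-0.31, edgeR adjusted p = 0.0417).

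Of the insulin-like growth factor binding proteins and relatives, which share the first CCN module, 3 of 10 were tested. *Igfbp6* rose in KO from 67.3 ± 9.32 to 91.9 ± 10.3 CPM (0.46, edgeR adjusted p = 0.00911), a call lost without KO-con replicate 2 (edgeR adjusted p = 0.0641) or KO replicate 2 (edgeR adjusted p = 0.073). *Igfbp4* was level at 558 to 566 CPM as group means (0.00 in KO, 0.01 in Over). In Over edgeR called 0 of 3, as did DESeq2 and limma-voom, with 0 at an unadjusted p under 0.05.

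Over the 8 lists, 70 genes were tested in at least 1 comparison. In KO 12 were called, 5 higher and 7 lower, where 11.8% of all transcripts were called. In Over 5 were called, 1 higher and 4 lower, where 1.65% were. Without Over-con replicate 3 the count in Over was 16, and against KO-con it was 21. Against Over-con in place of KO-con, 16 list genes were called in KO, 6 higher and 10 lower, among them *Lrp1*, *Itga4*, *Tgfbr3* and *Thbs2*, which were not called against KO-con. *Itga2b*, *Itgb2*, *Lrp6*, *Amot*, *Tgfb1*, *Notch2* and *Igfbp6* were then not called (edgeR adjusted p = 0.0831, 0.363, 0.976, 0.594, 0.482, 0.105 and 0.663), and *Hes1* was higher, at 1.65. In Over against KO-con, *Itgb3* and *Hey2* were higher, at 0.64 and 1.80.

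**Figure D5:**
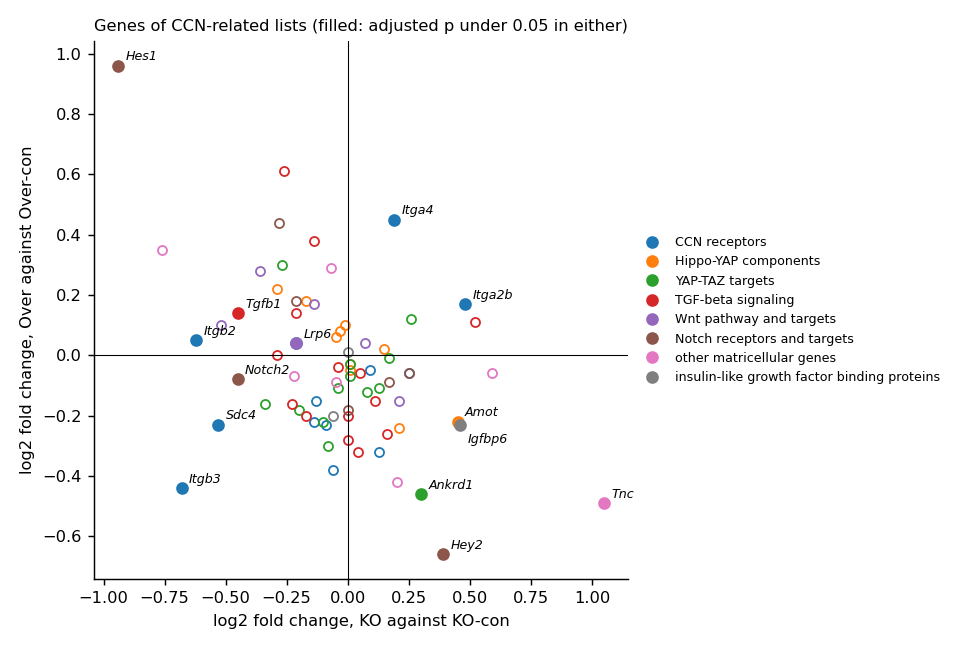
Log2 fold change in KO against KO-con (horizontal) and in Over against Over-con (vertical) of genes on the 8 CCN-related lists, coloured by list. Filled and named points had an edgeR adjusted p under 0.05 in either comparison. *Tnc* and *Ankrd1* lie at the lower right, higher in KO and lower in Over, and *Itgb3* at the lower left, lower in both.

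Genes within 500 kb of a member were compared as neighbours on the mm9 annotation. Around *Ccn3*, 8 genes were in the table and edgeR called 0 of 1 tested in KO and 0 of 2 in Over, as did DESeq2 and limma-voom, with 0 at an unadjusted p under 0.05. The nearest tested in both comparisons, *Taf2*, a TFIID subunit gene that starts 326450 bases away, was at -0.09 in KO and -0.05 in Over. *Mal2*, a membrane traffic gene, was tested only in Over among the 2, at -0.52 (edgeR adjusted p = 0.597). Around *Ccn5*, edgeR called 0 of 6 tested in KO and 0 of 6 in Over, as did DESeq2 and limma-voom, with 2 and 0 at an unadjusted p under 0.05. Around *Ccn1*, 1 of 5 was called in each, and around *Ccn2* none was tested. Over all transcripts 11.8% were called in KO and 1.65% in Over. With so few neighbours tested, these counts say little about the loci.

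The *Ccn1* neighbour was *Syde2*, a GTPase-activating protein gene (chr3:145650834-145684684, start 337885 bases from that of *Ccn1*). It fell by 0.49 in KO (edgeR adjusted p = 0.00154) and rose by 0.43 in Over (edgeR adjusted p = 0.0104). The call in Over was lost without Over-con replicate 1 (edgeR adjusted p = 0.0781) or Over replicate 3 (edgeR adjusted p = 0.0797). *Ccn1* itself was called in neither. With the control groups exchanged *Syde2* was at 0.13 in KO and -0.19 in Over, and was called in neither.

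Markers of cell types that the cultures could hold were summed in each library, and in bulk samples fewer cells of a type and less RNA per cell cannot be told apart. The 21 fibroblast markers, which the STO layer would also express, summed to 1760 to 1980 CPM in KO-con, 1630 to 2220 in KO, 2450 to 2650 in Over-con and 2120 to 2220 in Over, with *Pdgfrb* and *Sparc* at 0 in all 12 libraries. Over-con, the group with the most *Ccn3*, thus had the highest fibroblast sum, and KO and KO-con overlapped. Of 20 fibroblast marker transcripts tested, 2 rose and 2 fell in KO, where 11.8% of all transcripts were called. Their median log2 fold change was 0.10, against 0.007 over all transcripts. *Fbn1* (0.45, edgeR adjusted p = 0.00321) and *Lox* (0.55, edgeR adjusted p = 0.0157) rose, and 1 of 2 transcripts each of *Pdgfra* (-1.56, edgeR adjusted p = 0.00998) and *Dcn* (-0.41, edgeR adjusted p = 0.0224) fell. *Pdgfra* lost its call without KO-con replicate 1 (edgeR adjusted p = 0.0876) or KO replicate 2 (edgeR adjusted p = 0.053). *Lox* lost it without KO-con replicate 2, KO-con replicate 3 or KO replicate 2 (edgeR adjusted p = 0.0668, 0.0603 and 0.0859), and *Dcn* without KO-con replicate 1, KO-con replicate 3 or KO replicate 3 (edgeR adjusted p = 0.0698, 0.117 and 0.0509). In Over the median was -0.22, against -0.001 over all transcripts, of which 1.65% were called. Among the fibroblast markers 0 rose and 2 fell in Over. These were *Fbn1* (-0.38, edgeR adjusted p = 0.0177), lost without Over-con replicate 1 or 2 or Over replicate 1 or 3 (edgeR adjusted p = 0.0953, 0.0589, 0.121 and 0.145), and *Col6a1* (-0.40, edgeR adjusted p = 0.00491), lost without Over replicate 1 or 3 (edgeR adjusted p = 0.0505 and 0.0605).

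The 20 female germ cell markers summed to 81.9 to 168 CPM, mostly from *Ifitm3* (95.2 to 155 CPM as group means). The list includes *Stella*, and in Over the overexpressed *Stella* made up 30.3 ± 1.85 CPM of a sum of 150 to 162 CPM. The defining *Ddx4* was at 0 in all 12 libraries, so the labelled cell type was not visible in this marker. *Ddx4*, *Pdgfrb* and *Sparc* each have 2 transcript entries, and 2 or more entries were held by 24 of the 43 marker genes that were not tested. Germ cell markers with 1 entry were also low or absent. Over the 12 libraries *Figla*, *Stra8*, *Bcl6b*, *Mael*, *Sohlh2*, *Nobox* and *Sohlh1* had 0, 1, 2, 2, 3, 5 and 7 counts. *Stella*, *Ifitm3*, *Prdm1* and *Sycp3*, also with 1 entry, passed the filter in KO or Over. In KO, where 11.8% of all transcripts were called, 0 of 3 tested rose and 1 fell. This was *Prdm1* (-2.48, edgeR adjusted p = 0.00147), from 1.85 ± 0.137 to 0.312 ± 0.107 CPM, so its KO mean lay within the levels that 3 counts stand for. In Over, where 1.65% of all transcripts were called, 1 of 3 tested rose, *Stella* itself, and 1 fell, *Ifitm3* (-0.31, edgeR adjusted p = 0.0396).

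The 13 mast cell markers summed to 430 to 496 CPM in KO-con, 1250 to 1310 in KO, 867 to 980 in Over-con and 761 to 782 in Over, mostly *Cpa3*, with *Fcer1a*, *Ms4a2* and *Tpsab1* at 0 in all 12 libraries. *Kit*, *Tpsb2*, *Mcpt4* and *Mrgprb2* had 10, 8, 3 and 1 counts over the 12 libraries. *Cpa3* (1.55, edgeR adjusted p = 2.62e-09), *Hdc* (1.30, edgeR adjusted p = 0.0267), *Cma1* (1.79, edgeR adjusted p = 0.00834) and *Slc18a2* (0.56, edgeR adjusted p = 0.000888) rose in KO. These were 4 of the 6 tested, where 11.8% of all transcripts were called. *Hdc* lost its call without KO-con replicate 1, KO-con replicate 3, KO replicate 2 or KO replicate 3 (edgeR adjusted p = 0.134, 0.0649, 0.0507 and 0.13). *Cpa3* fell in Over (-0.30, edgeR adjusted p = 0.0247), a call that held only without Over-con replicate 3 (highest edgeR adjusted p = 0.192). The other 3 mast cell markers tested in Over were above 0 and not called, *Hdc* at 0.82, *Gata2* at 0.63 and *Slc18a2* at 0.13. The list median was 0.38, against -0.001 over all transcripts, of which 1.65% were called. *Gata2* passed without Over-con replicate 3 (1.72, edgeR adjusted p = 0.00614). The 11 leukocyte and macrophage markers summed to 1060 to 1470 CPM, led by *Laptm5* and *Fcgr1*, with *Adgre1* and *Itgam* at 0 in all 12 libraries. In KO 2 of 7 tested rose and 0 fell, with a median of 0.23. The 2 were *Fcgr1* (0.38, edgeR adjusted p = 0.00333) and *Cd68* (0.48, edgeR adjusted p = 0.0158). In Over 1 of 6 tested rose and 0 fell, with a median of -0.12, and it was *Cd68* (0.51, edgeR adjusted p = 0.00645). The 10 granulosa and theca markers summed to 19.9 to 28.2 CPM, led by *Star* and *Wt1* with *Foxl2* at 0 in all 12 libraries, and the 7 endothelial markers to 0.352 to 2.81 CPM, led by *Cdh5*. The part of these cell types in the *Ccn3* and *Ccn5* values was not tested.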

How the data were processed

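Total RNA was sequenced from 12 libraries (KAPA Stranded mRNA-Seq kit per the labels). The authors aligned reads to mm9 with HISAT2 and deposited whole-number counts per RefSeq transcript; counter and strand setting are not given in the sources used here. Rows without a symbol held 0.666% of counts, and all 12 value columns were used. CPM used TMM factors over all libraries. Transcripts passing filterByExpr were tested in edgeR 4.0.16 (TMM, quasi-likelihood, limma 3.58.1, R 4.3.3) with Benjamini-Hochberg adjustment, after tests on simulated data, within the 2 groups of each comparison, and in 1 fit of 12 libraries for the difference of effects. Called means an adjusted p under 0.05. DESeq2 1.42.0 and limma-voom were alternatives. The members and lists were chosen with earlier results of these data known, and 1 listed gene is not reported here. Named were all 6 members, list genes called with an absolute log2 fold change over 1 (at most 4 a list) or else the 2 most abundant, the 5 transcripts at either end of the likeness to *Ccn3*, called neighbours and *Stella*; other list genes were named after their values were seen. Chi-square per degree of freedom between replicates was 1.93 to 12.3, so none was counted as a duplicate. *Ccn2*, *Ccn3*, *Ccn4* and *Ccn5* had no promoter entry. The difference of effects for *Ccn3* (-2.83, standard error 0.14) also carries no test.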

Additional observations from a re-analysis of the deposited data

Results flagged for a closer look

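*Ccn5* differed between the knockout and overexpression effects by -2.12 on the log2 scale (edgeR interaction, adjusted p = 0.000647), with its value at -1.49 in KO and 0.63 in Over. All 12 fits that each left out 1 library kept this call (highest edgeR adjusted p = 0.0035).

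The same interaction flagged 17 others of the list, neighbour and marker genes that were checked, where 8.64% of 9903 transcripts were called. Some of these genes were named after their values were seen. Transcripts named for their likeness to *Ccn3* were not checked. Nor were *Fcgr1*, *Sdc2*, *Bambi*, *Thy1* and 1 *Col6a2* transcript, which passed the same test. They differed by 0.42, 0.45, -0.88, 0.47 and 1.17 (edgeR adjusted p = 0.009, 0.026, 0.04, 0.0386 and 0.0345). Of the flagged list genes, *Tnc* (1.54), *Ankrd1* (0.76), *Amot* (0.66), *Amotl1* (0.45), *Igfbp6* (0.70), *Ccnd1* (0.36) and *Hey2* (1.04) were higher under knockout relative to overexpression. *Hes1* (-1.90), *Notch2* (-0.37) and *Tgfb1* (-0.60) were lower. The *Ccn1* neighbour *Syde2* differed by -0.92, and of the markers *Cpa3* by 1.86, *Fbn1* by 0.83, *Col6a1* by 0.57, *Slc18a2* by 0.42, 1 *Pdgfra* transcript by -1.54 and *Prdm1* by -2.44. With 1 library left out, the call was lost in 7 of 12 fits for *Amot*, 3 for *Tgfb1*, 4 for *Ccnd1*, 6 for *Notch2*, 3 for *Igfbp6*, 8 for *Pdgfra*, 8 for *Slc18a2* and 8 for *Prdm1*, with a highest edgeR adjusted p of 0.16, for *Pdgfra*. It was kept in all 12 for *Tnc*, *Ankrd1*, *Amotl1*, *Hey2*, *Hes1*, *Syde2*, *Cpa3*, *Fbn1* and *Col6a1*.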

How the results depend on the processing

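Alternatives were DESeq2, limma-voom, other size factors, no filter or a minimum of 10 counts throughout, 1 fit of all libraries, counts summed per gene, a replicate block, leaving out each library, and the other control group. Outside the last, *Ccn3* stayed at -3.98 to -3.87 in KO and -1.17 to -0.96 in Over. With the control groups exchanged it was -5.42 in KO and 0.43 in Over, 1 member was called in Over (*Ccn5*), 21 list genes were called and 3 genes next to members. The filter on 10 counts left *Ccn5* untested, so 0 members were called in KO and 0 in the difference. With 1 library left out, members called ranged from 0 to 2 in KO and from 1 to 2 in the difference, *Ccn5* in KO from -1.66 to -1.25, list genes called in Over from 4 to 16, and genes next to members from 1 to 2 in KO, 0 to 1 in Over and 1 to 2 between the controls. Among values called under either control, those that turned when the controls were exchanged were, in KO, *Lrp6* 0.01, *Lats1* 0.35, *Notch1* -0.34, *Hes1* 1.65, *Hey2* -2.09, *Syde2* 0.13, *Fbn1* -0.20, *Slc18a2* -0.19 and *Col6a1* -0.40, and in Over, *Itgb3* 0.64, *Sdc4* 0.32, *Lrp6* -0.19, *Lats1* -0.32, *Tgfbr3* 0.16, *Notch1* 0.52, *Hes1* -1.65, *Hey2* 1.80, *Thbs2* 0.37, *Syde2* -0.19, *Cpa3* 0.70, *Fbn1* 0.27 and *Col6a1* 0.17. *Ccn1*, called under neither, turned to -0.27 in KO and 0.12 in Over. The cause was not tested. Same-numbered libraries did not deviate together (r -0.152 to 0.057), and under a replicate block 1 member was called in KO and 0 in Over, as without it; *Ccn5* was at -1.53 in KO (edgeR adjusted p = 0.0101), and 7 of 171 results changed, *Lrp6*, *Amot*, *Cpa3*, *Pdgfra* and *Slc18a2* losing a call. Depth limited *Ccn4* and *Ccn6*, which were not tested.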
